A study of Sus scrofa with 6 samples.

Results

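SMARCC1 was the host gene with the most exonic circular RNAs in the part of the boar testis table analysed here, and its 43 circRNAs are described here. They were chosen by the number of exonic circRNAs listed per gene, as all rows that name the host gene ENSSSCG00000011340. They are 43 of 2552 exonic circRNAs and of 4350 circRNAs in all, the other 1798 being intronic. The study's other circRNAs were not analysed here, and 1693 of the 2552 lie on chromosome 13, that of SMARCC1, so this rank and all shares over the table hold for these rows only. The gene was listed by its Ensembl identifier, which pairs with the symbol SMARCC1, and the functions listed beside it were the SWI/SNF complex, ATP-dependent chromatin remodeling and DNA binding. Since the number of circRNAs chose the gene, that number and what follows from it are given as a description, with no test.

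Testis RNA of Landrace boars was sequenced in 6 libraries, 3 of the group Young_D30 (piglets, postnatal day 30) and 3 of the group Adult_D210 (adults, postnatal day 210), to compare circRNAs before and after sexual maturity. Each library came from 1 boar, whole testis tissue was used, and no boar was treated. In both groups ribosomal RNA was depleted and linear RNA digested with RNase R before sequencing, so the values cannot be read against the linear mRNA. Each circRNA was counted by back-splice reads, that is, reads which join the end of a downstream exon to the start of an upstream one.

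A circRNA forms when the splice donor of an exon is joined to the acceptor of the same or an earlier exon, which closes the exons between them into a ring without free ends. Such rings resist exonucleases and are abundant in brain and testis, and one gene can yield many of them by using different acceptors and donors. SMARCC1, also known as BAF155, is a core scaffold subunit of the SWI/SNF (BAF) complex, which uses ATP to move nucleosomes. In the testis the germ cells change from spermatogonia to the full range up to spermatids between the piglet and the adult, so whole tissue differs in its cell makeup.

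The libraries held 37364412 to 49179118 mapped reads and 12701 to 33091 back-splice reads in the table. Every one of the 2552 exonic circRNAs had a read in Young_D30 replicate 1, against 39.3% to 48.9% in each other library, so circRNAs seen only in other libraries are missing from every comparison below, and results are repeated without that library. Circles of the listed cell type markers were few. They came from 3 of 20 spermatocyte and spermatid genes (DNAH1, MOV10L1 and PIWIL1), 1 of 8 Sertoli cell genes (GATA4) and 2 of 7 Leydig cell genes (CYP17A1 and STAR), and the other listed genes had no circRNA row. Summed levels ran from 1.38 to 5.17 in Young_D30 and 0.137 to 5.15 in Adult_D210 for the germ cell list, from 0 to 1.25 and 0 for the Sertoli list, and from 0.614 to 2.14 and 1.63 to 2.31 for the Leydig list. The unit is SRPBM, the back-splice reads divided by the library's mapped reads and by the read length of 150, times a constant. Their part in the results below was not tested, and fewer cells of a type cannot be told apart from less RNA per cell.

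The circles of SMARCC1 covered a stretch of 18 exons on the minus strand of chromosome 13, from 33764460 to 33841548 (77089 nt, build Sscrofa10.2). All 43 were assigned to the same transcript, ENSSSCT00000012417, and no intronic circRNA of the gene was listed. Exons are numbered here from 1 at the upstream end of the stretch, and need not match the exon numbers of the transcript. On this strand the acceptor is the higher coordinate of a circle and the donor the lower one. Circles used 13 acceptors and 15 donors. Of the 18 exons, 10 served as both, 3 (exons 1, 4 and 12) as acceptor only and 5 (exons 5, 6, 16, 17 and 18) as donor only.

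Of the 113 pairs of these acceptors and donors that would enclose at least 2 exons, 43 (38.1%) were seen, each as 1 circRNA. No circle of a single exon was listed. Sharing of ends was general, since 37 circles shared their acceptor with another, 38 shared their donor and all 43 shared at least 1 end. The circles held a median of 6 exons (2 to 18), against 4 over all exonic circRNAs, and 30 of them held at most 7. Their genomic span had a median of 18899 nt (2326 to 77089), against 8725 nt over all exonic circRNAs. Exon numbers here and below are those listed between a circle's joined ends. Whether inner exons were skipped or introns kept was not measured.

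**Figure D1:**
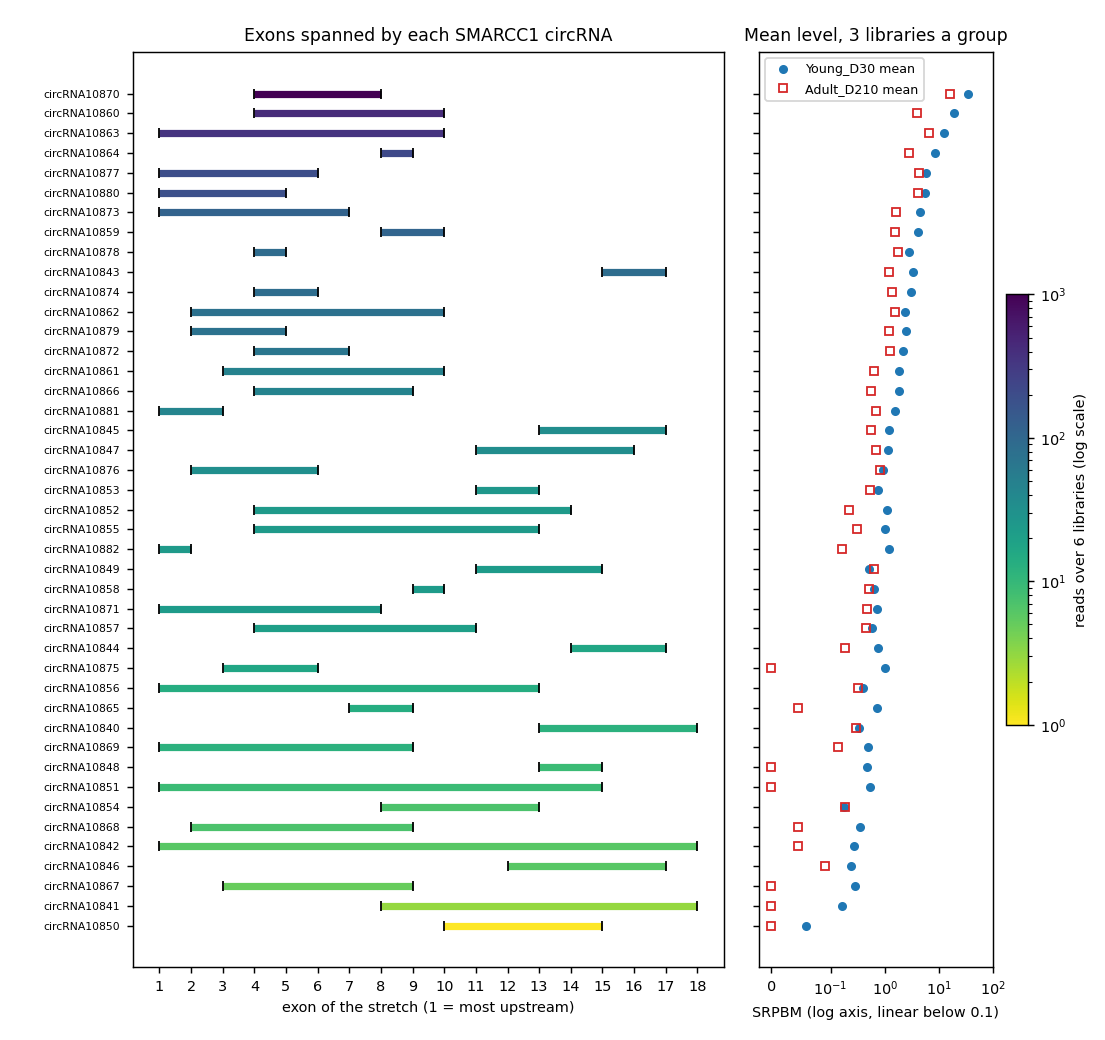
Left, the exons (1 to 18, numbered from the upstream end) spanned by each of the 43 SMARCC1 circRNAs, ordered and coloured by back-splice reads over 6 libraries (log colour scale). Right, mean SRPBM of 3 libraries in Young_D30 (filled circles) and Adult_D210 (open squares), on a log axis that is linear below 0.1. The bars with the most reads, at the top, lie within exons 1 to 10.

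Reads were concentrated on few ends in the upstream part. Over the 92 host genes with at least 8 exonic circRNAs, the most used acceptor held a median of 52.1% and the most used donor 50%. Such concentration is thus not particular to SMARCC1. The acceptor of exon 4 (position 33824539) took part in 9 circRNAs and 1770 of the gene's 3626 reads (48.8%), and the acceptor of exon 1 (33841548) in 11 circRNAs and 979 reads (27.0%). Exon 8 (33801655) followed with 4 circRNAs and 332 reads (9.16%), and exon 2 (33832357) with 4 circRNAs and 189 reads (5.21%). On the donor side, exon 10 (33793618) had 6 circRNAs and 1040 reads (28.7%), and exon 8 (33801530) had only 2 circRNAs but 1007 reads (27.8%). This order follows the reads added over libraries of unequal depth. Per library, donor 10 held 30.5% ± 2.62 and donor 8 held 27.9% ± 2.79 of the reads in Young_D30, and 25.2% ± 2.81 and 29.5% ± 4.64 in Adult_D210 (SD, n = 3 each). Donor 8 was ahead in each adult library and in Young_D30 replicate 2. The donors of exon 5 (33821362) and exon 6 (33815459) held 345 and 330 reads (9.51% and 9.10%).

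Pairing of the ends was uneven. Donor 8 was joined to acceptor 4 in 984 of its 1007 reads and to acceptor 1 in the other 23. Donor 10 was spread over more acceptors, with 429 reads from acceptor 4, 358 from acceptor 1 and 107 from acceptor 8. Acceptor 1 was joined to donors 10, 6 and 5 in 358, 194 and 183 reads. The circles also fell into an upstream and a downstream part, a division drawn between exons 10 and 11 after the values were seen. Within exons 1 to 10 lay 25 circRNAs with 3268 reads (90.1%), within exons 11 to 18 lay 9 with 249 reads (6.87%), and 9 with 109 reads (3.01%) ran across.

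**Figure D2:**
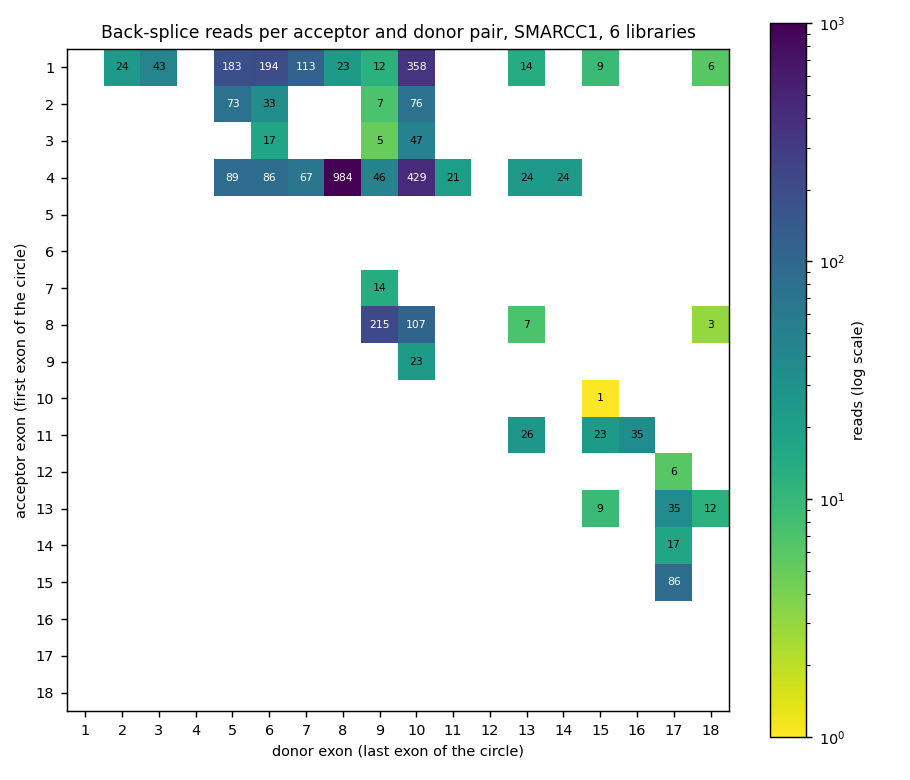
Back-splice reads over the 6 libraries for each pair of acceptor exon (vertical axis) and donor exon (horizontal axis) of SMARCC1, with the number of reads printed in each cell and a log colour scale. White cells had no circRNA listed. The darkest cell joins acceptor 4 to donor 8, with 984 reads.

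The introns beside the most used ends were not of one length. The intron upstream of exon 1 had 10823 nt and that upstream of exon 4 had 2738 nt, while those downstream of exons 8 and 10 had 2428 and 4440 nt. Over the 43 circles the median flanking intron was 4912 nt upstream and 4440 nt downstream, against 5504 and 4348 nt over the 2515 exonic circRNAs whose flanking introns could be read.

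A few isoforms held most of the reads. The circRNA with the most reads, circRNA10870 (exons 4 to 8), held 984 reads (27.1%) and ranked first in each of the 6 libraries. The top 3 together held 48.8% of the reads, the top 8 held 71.2% and the top 20 held 91.0%. At the other end, 9 circRNAs had fewer than 10 reads over the 6 libraries. A read was seen in all 6 libraries for 18 of the 43, and in 1 library for 3 of them. No Adult_D210 read was seen for 6. Since every exonic circRNA listed had a read in Young_D30 replicate 1, the 3 could only come from that library. The same numbers were not counted over all exonic circRNAs, so none of them is read as particular to SMARCC1.

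The 34 circRNAs with at least 10 reads were tested for a difference between the age groups with edgeR's quasi-likelihood test, within a fit of all 1341 circRNAs that passed the same limit. Calls needed a Benjamini-Hochberg adjusted p under 0.05 together with a log2 fold change of 1 or more in either direction. Over all circRNAs tested, 111 (8.28%) were called, and 65 (4.85%) were called lower in Adult_D210. Of the 34 SMARCC1 circRNAs, 1 was called, circRNA10860, and it was lower in Adult_D210. An unadjusted p under 0.05 was seen for 3 (circRNA10860, circRNA10864 and circRNA10870), or 8.82%, against 25.1% of all circRNAs tested.

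circRNA10860 (exons 4 to 10, chr13:33793618-33824539) had 156, 101 and 90 reads in the Young_D30 libraries and 31, 33 and 18 in the Adult_D210 libraries. Its level was 27.8, 15.4 and 13.8 SRPBM in Young_D30 and 4.202, 5.44 and 2.46 SRPBM in Adult_D210, so that all young libraries lay above all adult ones. The means were 19.03 ± 7.67 and 4.03 ± 1.497 SRPBM (SD, n = 3 each). Its log2 fold change of Adult_D210 against Young_D30 was -1.72 (SE 0.33, edgeR adjusted p = 0.00485). When Young_D30 replicate 1 was left out of both the filter and the test, it was -1.58 (edgeR adjusted p = 0.0271).

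circRNA10870 (exons 4 to 8, chr13:33801530-33824539) had 50.0, 29.8 and 26.1 SRPBM in Young_D30 and 17.5, 19.4 and 12.6 SRPBM in Adult_D210. The groups did not overlap, with means of 35.3 ± 12.8 and 16.5 ± 3.54 SRPBM (SD, n = 3 each). The log2 fold change was -0.56 (SE 0.25, edgeR adjusted p = 0.168), which was not called, and -1.10 with mapped reads as library size (edgeR adjusted p = 0.130). circRNA10864 (exons 8 and 9, chr13:33798980-33801655) had 12.3, 8.56 and 4.45 SRPBM in Young_D30 and 3.66, 1.81 and 3.14 SRPBM in Adult_D210. Its groups did not overlap either, and its log2 fold change of -0.99 (SE 0.42, edgeR adjusted p = 0.155) was not called, nor was the -1.53 with mapped reads as library size (edgeR adjusted p = 0.111).

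Of the other 5 among the top 8, 4 start at exon 1. circRNA10863 (exons 1 to 10) had 20.5, 6.11 and 10.4 SRPBM in Young_D30 and 9.49, 7.75 and 2.46 SRPBM in Adult_D210. Its groups overlapped, and the log2 fold change was -0.40 (edgeR adjusted p = 0.542), or -0.91 with mapped reads as library size. circRNA10877 (exons 1 to 6) had 9.99, 3.97 and 3.68 SRPBM in Young_D30 and 3.52, 6.92 and 2.73 SRPBM in Adult_D210. circRNA10880 (exons 1 to 5) had 11.06, 2.14 and 3.22 SRPBM in Young_D30 and 6.51, 3.63 and 2.19 SRPBM in Adult_D210. Both pairs of groups overlapped, with log2 fold changes of 0.15 and 0.18, which turned to -0.42 and -0.39 with mapped reads as library size.

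circRNA10873 (exons 1 to 7) had 8.21, 3.21 and 1.996 SRPBM in Young_D30 and 2.17, 1.81 and 0.820 SRPBM in Adult_D210, with overlapping groups and a log2 fold change of -0.91 (edgeR adjusted p = 0.282), or -1.46 with mapped reads as library size. circRNA10859 (exons 8 to 10) had 6.42, 3.21 and 2.61 SRPBM in Young_D30 and 2.03, 1.32 and 1.37 SRPBM in Adult_D210. Its groups did not overlap, and its log2 fold change was -0.81 (edgeR adjusted p = 0.295), or -1.34 with mapped reads as library size.

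**Figure D3:**
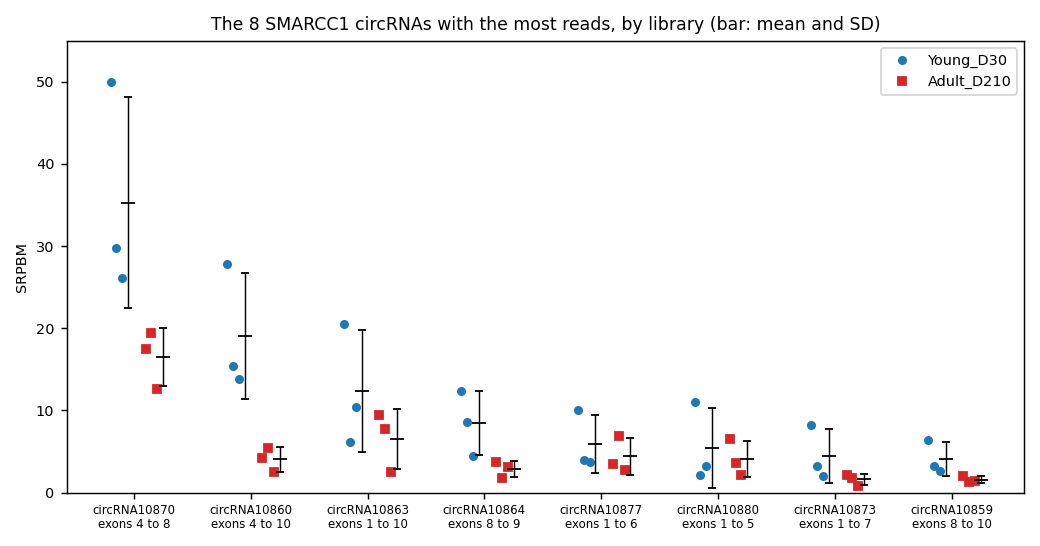
SRPBM of the 8 SMARCC1 circRNAs with the most reads, by library, in Young_D30 (circles) and Adult_D210 (squares), with the mean and SD of 3 libraries beside each group. For circRNA10860 the lowest young library, at 13.8, lies above the highest adult library, at 5.44.

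Over the 43 circRNAs, every Young_D30 library lay above every Adult_D210 library in SRPBM for 11, and the reverse was seen for 0. Neither share was counted over all 2552 exonic circRNAs, so neither number is read as particular to SMARCC1. Among those of SMARCC1 with at least 10 reads, the count with young above was 10 of 34, or 29.4%. It was 24.3% of the 1270 exonic circRNAs with at least 10 reads. Without Young_D30 replicate 1 the SMARCC1 count was again 10 of 34, against 25.98%. Leaving out a young library cannot lower this count, and the limit of 10 reads still included that library. The repeat therefore does not show whether the count depends on it. The log2 fold changes of the 34 had a median of -0.64, against -0.42 over all circRNAs tested, and 76.5% of them were below 0, against 60.2% of all. With mapped reads as library size both medians were lower, at -1.08 for the SMARCC1 circRNAs and -0.90 over all. With Young_D30 replicate 1 left out of filter and test, they were -0.46 over 28 SMARCC1 circRNAs and -0.05 over all.

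The shortest and longest circles bracket the rest. circRNA10843 (exons 15 to 17), with the shortest span of 2326 nt, had 35, 15 and 11 reads in Young_D30 and 13, 7 and 5 in Adult_D210, and its log2 fold change was -0.93 (SE 0.56, edgeR adjusted p = 0.304). circRNA10842 spanned all 18 exons and 77089 nt and rested on 6 reads, 2, 0 and 3 in Young_D30 and 1, 0 and 0 in Adult_D210. Circles of 2 exons were circRNA10864, circRNA10878, circRNA10858 and circRNA10882. circRNA10878 (exons 4 and 5) had 18, 17 and 17 reads in Young_D30 and 18, 6 and 13 in Adult_D210, circRNA10858 (exons 9 and 10) had 3, 4 and 5 and then 6, 2 and 3, and circRNA10882 (exons 1 and 2) had 13, 1 and 7 and then 0, 3 and 0.

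Just inside the limit of 10 reads stood circRNA10840, with 4, 0 and 2 reads in Young_D30 and 4, 2 and 0 in Adult_D210, and circRNA10869, with 3, 3 and 3 and then 1, 0 and 2. Just outside stood circRNA10848, with 1, 3 and 5 reads in Young_D30 and none in Adult_D210, and circRNA10851, with 9 reads in Young_D30 replicate 1 and none elsewhere. circRNA10875 (exons 3 to 6), singled out after its values were seen, passed the limit with 17 reads in Young_D30 replicate 1 and none in the other 5 libraries. Since it rests on 1 library, and the other Young_D30 libraries had no read either, no fold between the age groups is read from it. Its fitted log2 fold change lies below the median of the 34, so the size of that value cannot move the median.

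**Figure D4:**
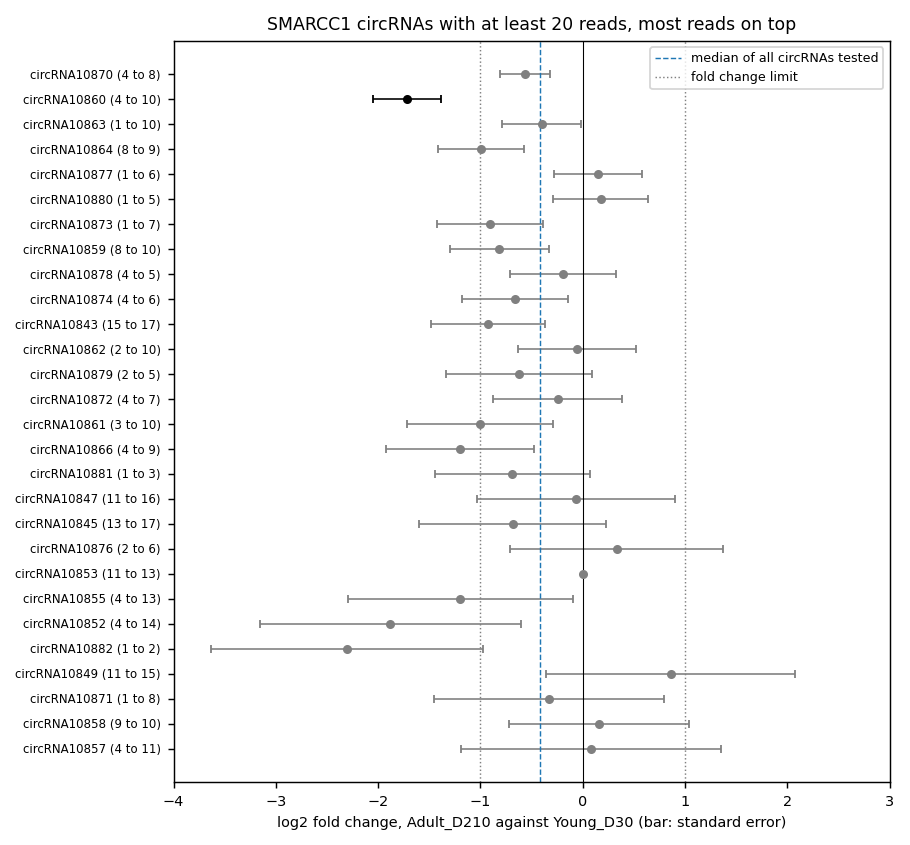
Log2 fold change of Adult_D210 against Young_D30 for the 28 SMARCC1 circRNAs with at least 20 reads (first and last exon in parentheses), with the standard error from edgeR's quasi-likelihood fit as bars. circRNA10860, in black at -1.72, was the called one; circRNA10853, at almost 0, has no bar because its F statistic was too small to give a standard error. The dashed line marks the median of all circRNAs tested (-0.42) and the dotted lines the fold limit of 1.

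Reads were next summed by back-splice site, since circles with a common end share it. Over all host genes, 9.86% of 943 acceptors and 10.9% of 1032 donors were called between the age groups. Of the SMARCC1 sites with at least 10 reads, 0 of 11 acceptors and 0 of 15 donors were called by edgeR. The acceptor of exon 4 passed the limit on the adjusted p but not that on the fold, with a log2 fold change of -0.73 (SE 0.21, edgeR adjusted p = 0.0362). That adjusted p did not hold when any library was left out (0.0633 to 0.162), and was 0.0109 with DESeq2. Its circles summed to 93.1, 55.3 and 52.2 SRPBM in Young_D30 and 30.1, 29.2 and 20.1 SRPBM in Adult_D210, which did not overlap. Those of the acceptor of exon 1 summed to 58.0, 19.9 and 22.3 and to 23.6, 22.7 and 9.15 SRPBM, which did, with a log2 fold change of -0.20 (SE 0.29, edgeR adjusted p = 0.688). With mapped reads as library size the acceptors of exons 4 and 1 were at -1.34 and -0.85 (edgeR adjusted p = 0.0608 and 0.276). Whether these 2 acceptors differ from each other in their change was not tested.

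Among the donors, exon 10 had a log2 fold change of -0.77 (SE 0.25, edgeR adjusted p = 0.0549), exon 8 of -0.44 (SE 0.25, edgeR adjusted p = 0.256) and exon 9 of -1.03 (SE 0.37, edgeR adjusted p = 0.0840). The donors of exons 5 and 6 were at 0.04 and 0.00. With mapped reads as library size, the donors of exons 10, 8, 5 and 6 were at -1.44, -1.09, -0.59 and -0.73, none of them called. An unadjusted p under 0.05 in edgeR's test was given for the acceptors of exons 3, 4 and 8 and the donors of exons 9 and 10. The share of all acceptors and donors at that level was not counted, so no excess is read from this list. Over all circRNAs tested that share was 25.1%. The 4 circles tested that end at donor 9 all had a log2 fold change below 0, from -3.02 to -0.99, and 5 of the 6 that end at donor 10 did. Of all SMARCC1 circRNAs tested 76.5% were below 0, and of all circRNAs tested 60.2%. The lowest of the circles at donor 9, circRNA10865, rested on 14 reads. Circles of 1 gene are not replicates, and these counts were not tested.

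Usage within the gene was then compared, that is, whether a circRNA moved apart from the other circles of its host gene. Over all host genes, 1 of 1075 circRNAs (0.0930%) was called by edgeR's diffSpliceDGE. Of the 34 SMARCC1 circRNAs 0 were called, the smallest adjusted p was 0.634, and 1 had an unadjusted p under 0.05 (circRNA10875). With limma's diffSplice, added after seeing the data, 7 of 1075 were called and again 0 of the 34, with 2 at an unadjusted p under 0.05 and a smallest adjusted p of 0.109. For circRNA10860 the log2 difference from the gene was -1.08 (diffSpliceDGE adjusted p = 0.796) and -1.22 (limma adjusted p = 0.109), so a shift in its usage was not called by either tool.

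As a description, circRNA10860 made up 13.8% (95% Wilson interval 11.9 to 16.0), 15.1% (12.5 to 17.96) and 14.7% (12.1 to 17.7) of the gene's reads in the Young_D30 libraries. In Adult_D210 it made up 5.70% (4.04 to 7.98), 8.78% (6.32 to 12.1) and 6.14% (3.92 to 9.50). It ranked at 2 in each young library and at 4 in each adult library. These intervals cover counting error only. The share of circRNA10870 was 27.2% ± 2.18 in Young_D30 and 28.8% ± 4.43 in Adult_D210 (SD, n = 3 each; exact permutation test, two-sided p = 0.6), and its groups overlapped.

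The reads of acceptor 4, which include both of these circles, were then divided by donor, with pairs picked after the values were seen. Donor 8 took 52.5% ± 2.17 of them in Young_D30 and 62.5% ± 4.28 in Adult_D210 (SD, n = 3 each), and donor 10 took 28.1% ± 1.71 and 15.0% ± 3.31. Neither pair of groups overlapped, but the circle from acceptor 4 to donor 10 is circRNA10860 itself, so this is the difference already given and not a further one. With its reads left out, donor 8 took 73.1% ± 4.48 of the rest in Young_D30 and 73.6% ± 7.47 in Adult_D210, with overlapping groups. Among the reads of acceptor 1, donor 10 took 37.7% ± 8.31 in Young_D30 and 33.7% ± 6.69 in Adult_D210, with overlapping groups.

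**Figure D5:**
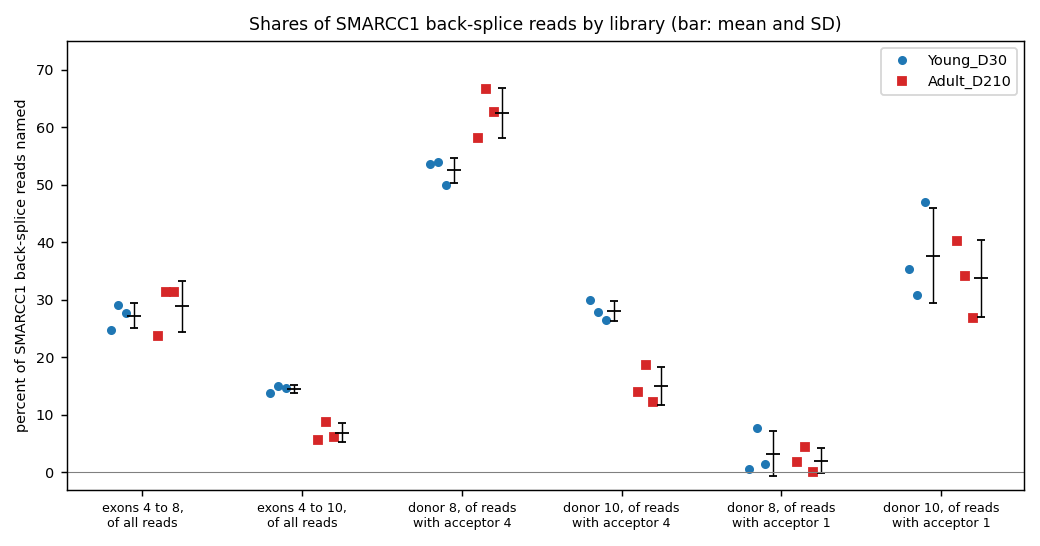
Percent of SMARCC1 back-splice reads by library in Young_D30 (circles) and Adult_D210 (squares), with the mean and SD of 3 libraries, for 2 circRNAs as a share of all reads of the gene and for donors 8 and 10 as a share of the reads with acceptor 4 or acceptor 1. The share of circles from exon 4 to exon 10 lies at 13.8% to 15.1% in Young_D30 and 5.70% to 8.78% in Adult_D210.

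For the gene as a whole, reads numbered 1129, 671 and 613 in Young_D30 and 544, 376 and 293 in Adult_D210. The summed level was 201.4, 102.5 and 94.1 SRPBM in Young_D30 and 73.7, 62.0 and 40.0 SRPBM in Adult_D210. All young libraries lay above all adult ones, with means of 132.7 ± 59.7 and 58.6 ± 17.1 SRPBM (SD, n = 3 each; exact permutation test, two-sided p = 0.1, the smallest that 3 against 3 can give). SMARCC1 made up 3.65% ± 0.23 of the exonic back-splice reads in Young_D30 and 2.54% ± 0.20 in Adult_D210 (SD, n = 3 each; exact permutation test, two-sided p = 0.1).

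In edgeR's fit of 478 host genes, of which 22.0% were called, the total of SMARCC1 had a log2 fold change of -0.40 (SE 0.22, adjusted p = 0.184) and was not called. The median over host genes was -0.32. With mapped reads as library size it was -1.18 (SE 0.48, edgeR adjusted p = 0.0822), beside a median of -1.08, and without Young_D30 replicate 1 in filter and test it was -0.41 (edgeR adjusted p = 0.184).

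The number of exons and the evenness of the reads were also compared by library, and the groups overlapped in both. The mean number of listed exons per back-splice read was 5.66 ± 0.20 in Young_D30 and 5.61 ± 0.37 in Adult_D210 (SD, n = 3 each; exact permutation test, two-sided p = 0.9). The effective number of circRNAs, the inverse Simpson index, which is high when reads are spread evenly, was 8.48 ± 0.80 and 8.30 ± 1.78 (exact permutation test, two-sided p = 0.9). The libraries held 43, 32 and 32 of the circRNAs in Young_D30 and 33, 25 and 24 in Adult_D210. Thinned to 293 reads of the gene each, 31.2 ± 3.22 and 26.4 ± 3.76 would be detected (SD, n = 3 each). These numbers are a description, since all 43 had to have a read in Young_D30 replicate 1.

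The host genes below it in number were compared, PTPN13 (a protein tyrosine phosphatase) with 32, TIAM1 (an activator of the GTPase RAC1) with 27 and WDFY3 (a scaffold in selective autophagy) with 27. The number of circRNAs chose SMARCC1, so its ratio to the number of acceptors is a description. SMARCC1 formed 3.31 circRNAs per acceptor, against 1.78 in PTPN13, 2.70 in TIAM1 and 1.69 in WDFY3, and a median of 1.83 over the 92 host genes with at least 8 exonic circRNAs. Its top circRNA held 27.1% of its reads, against 23.9%, 44.2% and 49.2%, and a median of 39.9%. The summed reads of PTPN13 fell, with a log2 fold change of -1.56 (SE 0.29, edgeR adjusted p = 8.83e-05). TIAM1 was at 0.10 and WDFY3 at -0.95 (edgeR adjusted p = 0.0436), under the fold limit. With mapped reads as library size they were at -0.76 and -1.81 (edgeR adjusted p = 0.323 and 0.0241), past both limits for WDFY3, and without Young_D30 replicate 1 in filter and test at 0.47 and -0.82 (edgeR adjusted p = 0.358 and 0.106). Differences between these genes were not tested.

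The summed exonic level over the 6 libraries, as log2(SRPBM + 1), was most like that of SMARCC1 in CLASP2 (Pearson r = 0.98), GRAMD1C (0.98), DCAF1 (0.98), GNL3 (0.97) and SMARCA5 (0.97), among 216 host genes with at least 100 reads, whose median r was 0.79. All these values share the same 6 libraries and their depth. The nearest host genes in the table were SCAP on the lower coordinate side and DHX30 on the higher.

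Circles of other chromatin remodeling genes were counted from a list. Of 36 names listed, 11 besides SMARCC1 had a circRNA in the table, and with the genes whose listed functions named SWI/SNF or chromatin remodeling there were 22 host genes, 7 of them with exonic circRNAs. SMARCA4, an ATPase of the SWI/SNF complex, had 1 intronic circRNA with 1 read. Of the 5 host genes tested, 0 were called higher and 1 lower in Adult_D210, beside the 22.0% of all host genes called. That was SATB1, an organizer of chromatin loops, with 218, 65 and 106 reads in Young_D30 and 7, 5 and 5 in Adult_D210 (log2 fold change -3.84, SE 0.48, edgeR adjusted p = 1.06e-07). SMARCA5, the ATPase of the ISWI remodelers, had 129, 101 and 97 reads in Young_D30 and 87, 81 and 69 in Adult_D210, and its log2 fold change was 0.12 (SE 0.31, edgeR adjusted p = 0.801). Its level was 17.8 ± 4.54 SRPBM in Young_D30 and 11.5 ± 1.98 SRPBM in Adult_D210 (SD, n = 3 each), and its direction turned with mapped reads as library size, to -0.62 (edgeR adjusted p = 0.371), and without Young_D30 replicate 1, to -0.03.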

How the data were processed

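Libraries from 6 boar testes were read as pairs of 150 nt. After trimming with Cutadapt, the authors used TopHat2 and TopHat-Fusion to place reads on the pig genome (Sscrofa10.2 in the submitters' processing notes) and assigned back-splice reads with CIRCExplorer2. The authors deposited, per circRNA and library, the raw count of back-splice reads and SRPBM, a signal scaled by mapped reads and read length. The mapped reads of a library follow from its counts and SRPBM. The copy of the table used here ends within its last row, and other circRNAs were not analysed here. Replicate libraries differed by more than counting noise (chi-square per degree of freedom 3.87 to 4.97), and since no molecular identifiers were used, reads may share a molecule.

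Exons were rebuilt from the circles' ends, their listed flanking introns and their listed exon counts. The inner edges of exons 4 and 5 could not be placed. Sequences were not used here.

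Counts were tested with edgeR 4.0.16 in R 4.3.3 (TMM on back-splice totals, at least 10 reads over 6 libraries, robust quasi-likelihood fit in its edgeR 4 form, Benjamini-Hochberg over all features). Standard errors came from the log2 fold change and F, and were left out where F was under 0.001, a rule added after seeing the data (19 of 1341 circRNAs, 1 of SMARCC1). Usage was tested with diffSpliceDGE on the older form of the fit and, added after seeing the data, with limma 3.58.1. DESeq2 1.42.0, other library sizes, filters, a replicate block and leaving out libraries were alternatives. Single values per library were compared by exact two-sided permutation tests, enumerated directly in Python 3.11.15 with NumPy 2.4.6.

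The circRNAs named are the 8 with the most reads, those called, the shortest and longest, those with the most and fewest exons and those nearest to the limit of 10 reads. Sites named are the 4 acceptors and 4 donors with the most reads, and others that are named were picked with their values known. The gene, its circRNAs and all lists were chosen with earlier results of these data known. Of 164 Ensembl identifiers among exonic host genes, 109 could be paired with a symbol.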

Additional observations from a re-analysis of the deposited data

How the results depend on the processing

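circRNA10860 was called in each of 14 alternatives, with log2 fold changes from -2.24 to -1.58 and edgeR or DESeq2 adjusted p-values of at most 0.0400. It was the only SMARCC1 circRNA called in each of them (1 to 1 with each library left out). Over all circRNAs the calls fell from 111 to between 37 and 78 with 1 library left out. The replicate numbers did not pair the libraries (correlations of 0.05, -0.01 and -0.03); with the replicate block 33 circRNAs were called, circRNA10860 was at -1.74, and 0 of the gene's circRNAs were called for usage. The total of SMARCC1 ranged from -0.41 to -0.22 with 1 library left out and was -0.49 with DESeq2 (adjusted p = 0.0282), under the fold limit. Without a fold limit 1 SMARCC1 site was called, the acceptor of exon 4 (-0.73).

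Values near 0 changed sign, and the cause was not tested. With mapped reads as library size, circRNA10877 was at -0.42, circRNA10880 at -0.39, the donor of exon 5 at -0.59 and the donor of exon 6 at -0.73. These donors were at -0.039 and -0.072 without a filter, and the donor of exon 6 at -0.039 with the replicate block. The acceptor of exon 1 was at 0.082 when Young_D30 replicate 1 was left out of filter and test. With 1 library left out in turn, circRNA10877 ranged from -0.31 to 0.46, circRNA10880 from -0.12 to 0.83, the acceptor of exon 1 from -0.34 to 0.087, that of exon 2 from -0.33 to 0.11, the donor of exon 5 from -0.29 to 0.26 and that of exon 6 from -0.37 to 0.25. The difference in exons per read (Adult_D210 minus Young_D30) ranged from -0.230 to 0.140, the effective number from -1.19 to 0.497, the share of circRNA10870 from 0.350 to 4.19 percentage points, the number detected at equal depth from -6.96 to -2.96 and the number of sites and of usage calls from 0 to 0. The top 3 circRNAs together gave -4.59 percentage points in place of 1.63. Of 306 alternatives 277 were marked as unchanged. For counts of calls this meant an equal number. For other values it meant the same direction and, where a threshold applied, the same side of it. Depth limits the 9 circRNAs under 10 reads to a description.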
